A study of Homo sapiens with 30 samples.

Results

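The 41 genes described here encode nucleoporins, the proteins of the nuclear pore, and the soluble factors of nuclear transport. They were chosen by symbol, as a list of 27 nucleoporin genes and 14 transport factor genes, and they are 41 of the 27630 genes in the deposited count tables. All 41 passed the filter on low counts, which left 16504 genes for testing. Their counts ran from 29 (NUP37 in the second PFA-fixed lamina library) to 6816 (KPNB1 in the first native lamina library) per library.

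The nuclear pore is a ring-shaped assembly set in the nuclear envelope. Scaffold nucleoporins form its outer and inner rings, membrane nucleoporins anchor it, nucleoporins with phenylalanine-glycine repeats fill the channel, and filaments project to the cytoplasmic side while a basket faces the chromatin and the lamina. Importins and exportins carry cargo through the channel, and the small GTPase Ran, bound to GTP in the nucleus and to GDP in the cytoplasm, sets the direction. Messenger RNA mostly leaves by another receptor, NXF1. The values below are of the messenger RNAs of these proteins, not of the proteins.

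RNA was sequenced from HEK293FT, a line derived from human embryonic kidney cells, in 4 groups of 2 libraries. One group was a nuclear fraction, another a cytosolic fraction, and the other two were RNA recovered near the nuclear lamina after labelling by APEX2, a peroxidase that tags molecules close to it, in a native preparation and in a paraformaldehyde-fixed (PFA) preparation. The labels state that the cells of all 8 libraries, fractions included, were asynchronous and carried a transfected fusion of APEX2 with lamin B1, a protein of the lamina. RNA was extracted with Trizol and depleted of ribosomal RNA, no label names an untransfected or unlabelled library, and nothing says whether the 2 libraries of a group came from separate cultures, so p-values measure only the spread between these libraries, which may be technical.

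Total counts were 2321291 to 8557777 per library, with the lowest in the second PFA library. LMNB1, the gene of the fusion, took 0.304% to 0.520% of the counts in the fractions, 8.60% and 2.96% in the native lamina libraries and 8.89% and 9.49% in the PFA lamina libraries. Counts cannot separate the fusion from the endogenous gene, and the part of these shares in the lamina comparisons was not tested. MALAT1, a nuclear RNA, took 1.08% and 1.43% of the nuclear libraries, 0.0817% and 0.0794% of the cytosolic, 0.613% and 1.39% of the native and 0.0550% and 0.361% of the PFA libraries, so the first PFA library lay below the cytosolic libraries and the second above them. Of 7 genes fixed as HEK293FT markers, PAX2 was at 0 in the second cytosolic library and all others were detected in every library. Of the markers of red cell precursors and leukocytes, HBG1, HBG2, PTPRC and CD3E were at 0 in every library and GATA1 had 0 to 10 counts. Of 6 colorectal markers, CDX1 and KRT20 had at most 2 counts, CDH17 had 0 to 8, EPCAM 7 to 21, VIL1 0 to 74 and CDX2 60 to 313. GATA1, CDH17 and VIL1 had their highest counts in the nuclear libraries.

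Levels are given as normalised CPM, counts scaled to library size (CPM) after adjustment by TMM factors, always in the order replicate 1 and replicate 2. The genes together took 0.511% and 0.496% of the counts of nuclear libraries, 0.823% and 0.692% of cytosolic ones, 0.825% and 0.733% in the native lamina and 0.625% and 0.697% in the PFA lamina libraries. A CPM value is a share of 1 library's RNA, so fewer cells holding a transcript and fewer copies per cell cannot be told apart. Divided by exonic length in kilobases, so that genes can be compared with each other, the highest mean levels in the nuclear fraction were those of the exportin gene XPO1 with 64.9 ± 1.58 (SD, n = 2) and of the importin beta gene KPNB1 with 60.1 ± 6.41 normalised CPM per kilobase, which do not differ beyond their spread. In the cytosolic fraction KPNA2, KPNB1 and RAN stood together at the top, with 161 ± 40.4, 159 ± 14.2 and 159 ± 21.5 normalised CPM per kilobase. KPNB1 was the highest in both lamina preparations, with 139.8 ± 27.4 and 141 ± 41.3. At the low end stood KPNA3 in the nuclear fraction (5.34 ± 0.61), POM121 in the cytosolic fraction (5.92 ± 2.14) and at the PFA lamina (6.36 ± 0.28), and NUP35 at the native lamina (6.09 ± 3.63).

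**Figure D1:**
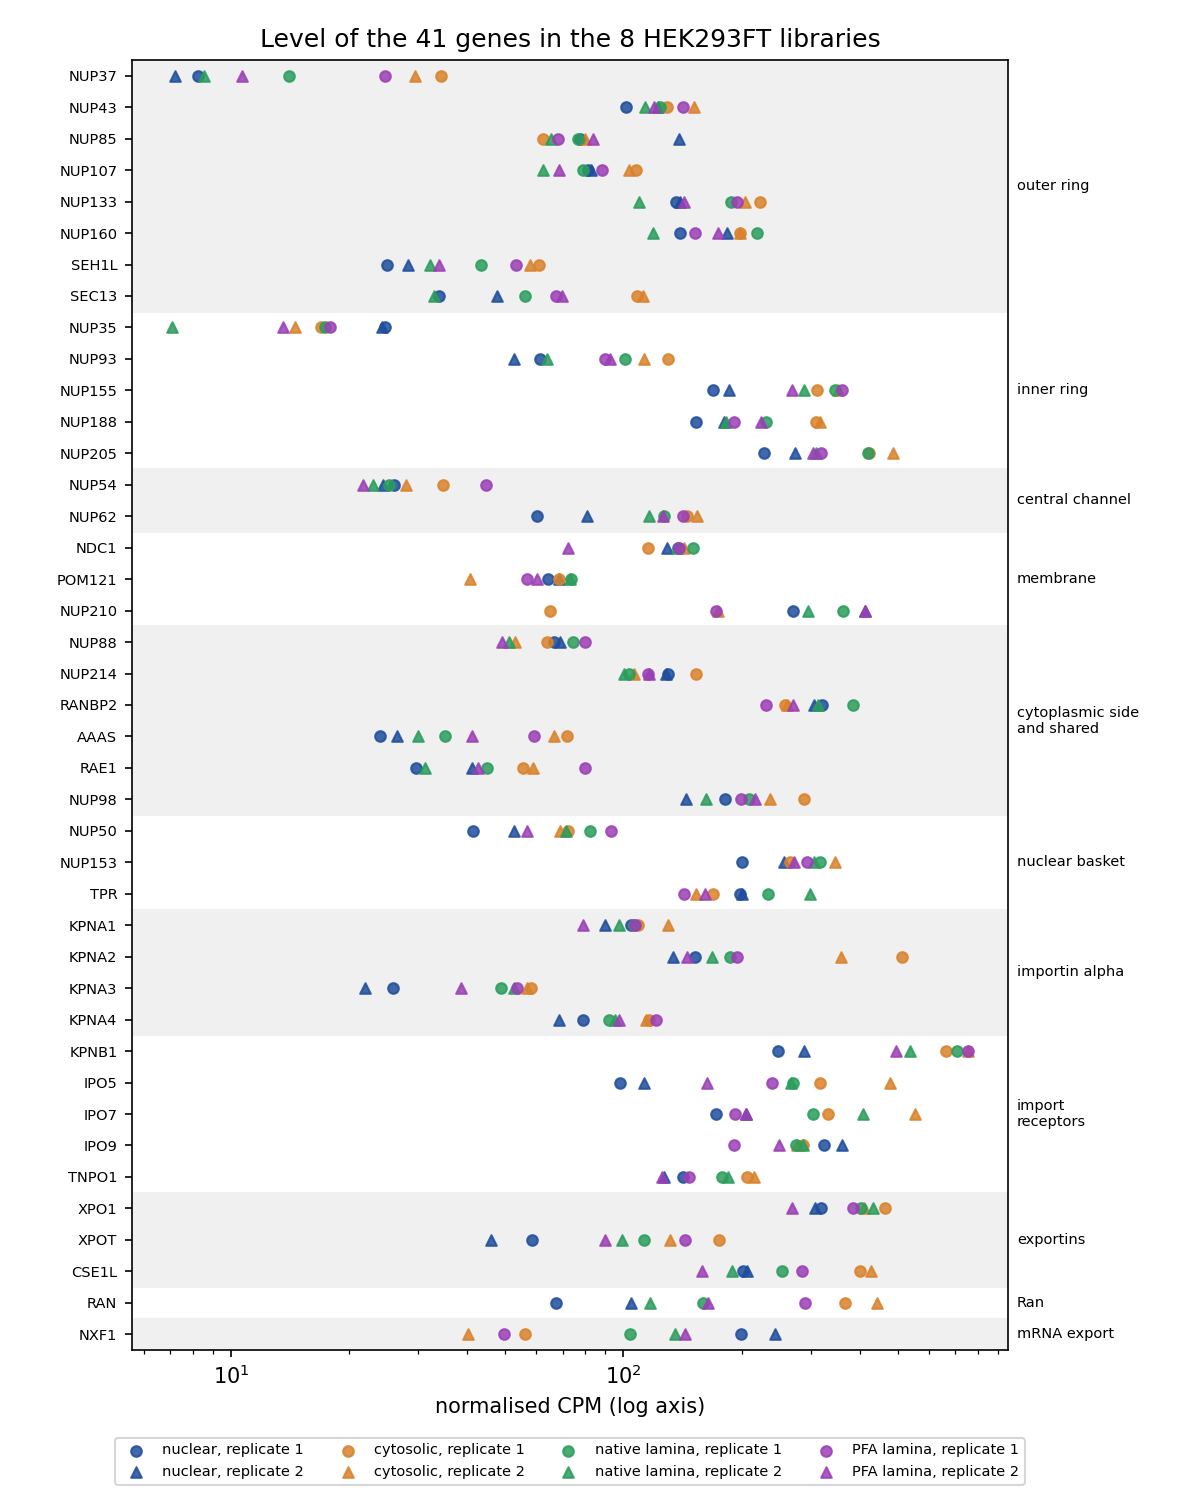
Normalised CPM (horizontal log axis) of each of the 41 genes (rows, grouped by role) in the 8 libraries, with circles for replicate 1 and triangles for replicate 2 and colours for the 4 groups. RAN, KPNA2 and IPO5 separate the nuclear from the cytosolic libraries widely, NXF1 and NUP210 do so in the opposite order, and the PFA libraries lie far apart for NUP37, NUP210 and NXF1.

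The first comparison asks which of these messenger RNAs were relatively more abundant in the nucleus and which in the cytosol. RAN, 5 of 9 importin genes, 2 of 3 exportin genes and 9 of 27 nucleoporin genes were more abundant in the cytosolic fraction, by 1.81-fold (NUP205) to 4.72-fold (RAN). NXF1 and NUP210 were more abundant in the nuclear fraction, by 4.59-fold and 2.87-fold. Of the 41 genes, 17 were lower in the nuclear fraction at an adjusted p under 0.05 in edgeR's quasi-likelihood test, which is 41.5% of them, against a background of 21.2% of all genes tested, and 2 were higher, against a background of 26.1%. The median log2 fold change, nuclear over cytosolic, was -0.64 over the 41 genes and 0.13 over all 16504, and 31 of the 41 had a negative sign. At an unadjusted p under 0.05, edgeR gave 20 lower and 2 higher, against 24.6% and 30.2% of all genes. With the Wald test of DESeq2, 20 were called lower and 2 higher, against 20.9% and 24.6% of all genes, and the genes it added were NUP98, KPNA4 and TNPO1. Where no other tool or setting is named, called means called by edgeR in the fit of all 8 libraries.

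Ran is the GTPase that loads and unloads all importins and exportins. RAN stood at 67.2 and 104 normalised CPM in the nuclear libraries, and its cytosolic libraries had 366 and 444. The groups did not overlap, and the cytosolic level was 4.72-fold the nuclear one, with a log2 fold change of -2.24 (SE 0.36) and an adjusted p of 0.000864 (edgeR). This was the lowest value and the smallest adjusted p among the 41 genes. NXF1, the receptor that carries messenger RNA through the pore, showed the opposite order, with 199 and 244 in the nuclear and 56.0 and 40.2 in the cytosolic libraries. Its nuclear level was 4.59-fold higher (log2 2.20 (SE 0.42), adjusted p = 0.00171, edgeR), again with no overlap. With 2 libraries per group, lack of overlap is weak evidence. The fractions also did not overlap for genes that were not called, such as NUP43, NUP107 and XPO1. No share over all genes is given. Some transcripts of NXF1 are known to retain an intron. The deposited counts are per gene, so transcripts of a gene are not separated.

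The other gene called higher in the nuclear fraction was NUP210, whose product spans the pore membrane and reaches into the envelope lumen. NUP210 had 270.0 and 413 normalised CPM in the nuclear libraries, while 65.1 and 174 were measured in the cytosolic ones. The cytosolic libraries differed more from each other than the nuclear ones did, and the groups did not overlap (log2 1.52 (SE 0.48), adjusted p = 0.0194, edgeR). The log2 fold change was 0.96 (adjusted p = 0.173) without cytosolic replicate 1, 2.37 (adjusted p = 0.0146) without cytosolic replicate 2 and 1.16 (adjusted p = 0.119) without nuclear replicate 2, so the call was lost without cytosolic replicate 1 or nuclear replicate 2. The remaining membrane nucleoporin genes, NDC1 and POM121, were at log2 0.05 and 0.28 and were not called. POM121 shares much of its sequence with POM121C, so its counts are uncertain.

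Promoter sequences are shown for RAN and KPNA2, called higher in the cytosolic fraction, and for NXF1 and NUP210, the genes of the 41 that edgeR called higher in the nuclear fraction, so that the letters upstream of oppositely placed genes can be compared. These 4 were picked after their values were seen. Each is the 150 bases before the transcription start on the gene's strand, 5′ to 3′, from RefSeq on GRCh38.p14, with matches to 4 motifs on either strand in capitals: the GC box GGGCGG, the CCAAT box CCAAT, the TATA box TATAAA and the cell cycle element TTTGAA. The positions are chr12:130871916-130872065 (plus strand), chr17:68035585-68035734 (plus), chr11:62805441-62805590 (minus) and chr3:13420323-13420472 (minus).
RAN: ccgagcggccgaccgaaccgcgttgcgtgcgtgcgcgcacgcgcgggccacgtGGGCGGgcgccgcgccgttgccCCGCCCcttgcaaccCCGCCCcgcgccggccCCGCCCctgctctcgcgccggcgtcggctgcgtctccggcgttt
KPNA2: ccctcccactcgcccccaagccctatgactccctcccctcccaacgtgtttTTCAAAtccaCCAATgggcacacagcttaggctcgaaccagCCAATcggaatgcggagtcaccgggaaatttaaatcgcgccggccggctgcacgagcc
NXF1: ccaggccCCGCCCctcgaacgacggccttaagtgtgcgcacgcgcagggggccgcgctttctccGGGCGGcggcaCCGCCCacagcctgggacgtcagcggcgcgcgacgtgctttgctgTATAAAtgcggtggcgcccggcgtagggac
NUP210: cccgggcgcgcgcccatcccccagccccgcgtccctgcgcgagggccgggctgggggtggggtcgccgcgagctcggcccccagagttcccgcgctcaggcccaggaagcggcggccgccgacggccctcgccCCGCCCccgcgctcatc
The RAN stretch holds 4 matches to the GC box and none to the CCAAT box, while that of KPNA2 holds 2 CCAAT boxes, none to the GC box and 1 TTTGAA read on the other strand. NXF1 holds 3 GC boxes and 1 TATAAA, and NUP210 holds 1 GC box. RefSeq gave a promoter window of 300 bases (250 before to 50 after the start) for 38 of the 41 genes. In these windows GGGCGG was found in 57.9% of the 38 and in 44.6% of all 27305 promoters, CCAAT in 42.1% and 35.7%, and TTTGAA in 26.3% and 15.4%. TATAAA was found in 2.63%, which is NXF1 alone, and in 12.0% of all promoters. The median GC content of the windows was 64.0% for the genes and 58.3% for all promoters.

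Importin alpha proteins bind the classical nuclear localisation signal and are carried by importin beta. Of the 4 importin alpha genes, KPNA2 and KPNA3 were lower in the nuclear fraction and KPNA1 (log2 -0.29) and KPNA4 (log2 -0.64, adjusted p = 0.0581, edgeR) did not pass the test. KPNA2 was at 152 and 134 normalised CPM in the nuclear and 513 and 358 in the cytosolic libraries, a 3.05-fold higher cytosolic level (log2 -1.61 (SE 0.30)). KPNA3 went from 25.8 and 22.0 in the nuclear to 58.0 and 56.7 in the cytosolic libraries (log2 -1.26 (SE 0.28)). In neither gene did the groups overlap. Reads of RAN and KPNA2 can also match processed pseudogenes of these genes, so their counts are uncertain to that extent.

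Among the 5 import receptor genes, KPNB1, IPO5 and IPO7 were lower in the nuclear fraction and TNPO1 and IPO9 were not called by edgeR, while DESeq2 called TNPO1 lower. KPNB1, importin beta, had 248 and 288 normalised CPM in the nuclear and 665 and 754 in the cytosolic libraries (log2 -1.41 (SE 0.33), adjusted p = 0.00436, edgeR). IPO5, an importin of ribosomal proteins and histones, had the largest difference of the receptors, from 98.0 and 113 in the nuclear to 317 and 477 in the cytosolic libraries, a 3.77-fold higher cytosolic level (log2 -1.91 (SE 0.32), adjusted p = 0.000995). IPO7 stood at 173 and 205 in the nuclear and 333 and 552 in the cytosolic libraries (log2 -1.23). These 3 genes thus had cytosolic libraries that all lay above the nuclear ones. For IPO9, also an importin of histones, the log2 fold change was 0.29 (SE 0.28), opposite in sign to the other receptors (adjusted p = 0.416). TNPO1, transportin, was at -0.65 (SE 0.27) with an adjusted p of 0.0585.

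The exportin genes were XPO1, XPOT and CSE1L. XPOT, the export receptor of transfer RNA, was at 58.5 and 46.0 normalised CPM in the nuclear and 175 and 131 in the cytosolic libraries (log2 -1.55 (SE 0.31)). CSE1L, which returns importin alpha to the cytoplasm, was at 201 and 206 in the nuclear and 402 and 427 in the cytosolic libraries (log2 -1.02 (SE 0.33)). Both were called, with groups that did not overlap. XPO1, the exportin of proteins with leucine-rich signals, was at 319 and 308 in the nuclear and 464 and 409 in the cytosolic libraries and did not pass the test (log2 -0.48 (SE 0.29), adjusted p = 0.195, edgeR), although its groups did not overlap either.

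In the outer ring, the Y-shaped scaffold complex, 3 of 8 genes were lower in the nuclear fraction. NUP37 had the second lowest log2 fold change of all 41 genes, -2.04 (SE 0.42), from 8.25 and 7.22 normalised CPM in the nuclear to 34.2 and 29.4 in the cytosolic libraries (adjusted p = 0.00236, edgeR). SEC13, which also serves in the coat of secretory vesicles, was at 33.9 and 47.6 in the nuclear and 108 and 112 in the cytosolic libraries (log2 -1.44), and SEH1L at 25.1 and 28.3 against 61.1 and 57.7 (log2 -1.15). All 3 had separate groups, and NUP37 (1293 bases) and SEC13 (2174 bases) have the shortest exonic length of the ring. The other 5 genes of the ring, NUP43, NUP85, NUP107, NUP133 and NUP160, had log2 fold changes from -0.63 (NUP133) to 0.61 (NUP85) and were not called.

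The inner ring holds the scaffold that surrounds the channel. Of its 5 genes NUP93, NUP155, NUP188 and NUP205 were lower in the nuclear fraction, within a narrow range of log2 fold changes from -1.09 (NUP93) to -0.85 (NUP205). NUP205 was at 228 and 274 normalised CPM in the nuclear and 422 and 485 in the cytosolic libraries. NUP35 was the exception in sign, with 24.7 and 24.2 in the nuclear and 17.0 and 14.6 in the cytosolic libraries, and was not called (adjusted p = 0.202, edgeR). In the central channel NUP62, which lines it with phenylalanine-glycine repeats, was lower in the nuclear fraction (60.4 and 80.9 against 145 and 154, log2 -1.08) and its partner NUP54 was not called (log2 -0.32).

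At the cytoplasmic side and among nucleoporins found on both sides, 1 of 6 genes was called. AAAS, whose product ALADIN sits on the pore scaffold, was at 24.0 and 26.5 normalised CPM in the nuclear and 71.9 and 66.4 in the cytosolic libraries (log2 -1.46 (SE 0.29), adjusted p = 0.00195, edgeR). RANBP2, the filament protein that binds Ran, was at 320.4 and 305 in the nuclear and 258 and 262 in the cytosolic libraries, a log2 fold change of 0.27 (SE 0.28) that did not pass. RANBP2 has near-identical copies in the RGPD genes, so its counts are uncertain. NUP98, a mobile nucleoporin that also binds RAE1, was at 181 and 144 in the nuclear and 288 and 236 in the cytosolic libraries (log2 -0.69 (SE 0.29), adjusted p = 0.0621), and RAE1, NUP88 and NUP214 were at log2 -0.70, 0.21 and -0.00. None of these 5 was called by edgeR, and DESeq2 called NUP98 lower.

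None of the 3 nuclear basket genes, NUP50, NUP153 and TPR, passed edgeR's test between the fractions. TPR, the coiled-coil protein that builds the basket, was at 199 and 200.3 normalised CPM in the nuclear and 169 and 154 in the cytosolic libraries (log2 0.31 (SE 0.27), adjusted p = 0.368, edgeR). The groups did not overlap, yet the difference was close to its standard error. NUP153 and NUP50 were at log2 -0.42 and -0.59. Strand was ignored in counting and reads were counted for every gene they overlapped, and 8 of the 41 genes share exonic bases with another gene. The widest overlap was NUP88, with 1536 of 3736 exonic bases (41.1%) shared with RABEP1 and RPAIN on the other strand. The others were NUP188, NUP62, POM121, NUP98, NUP153, TPR and IPO9, with 0.249% to 11.6% of bases shared.

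**Figure D2:**
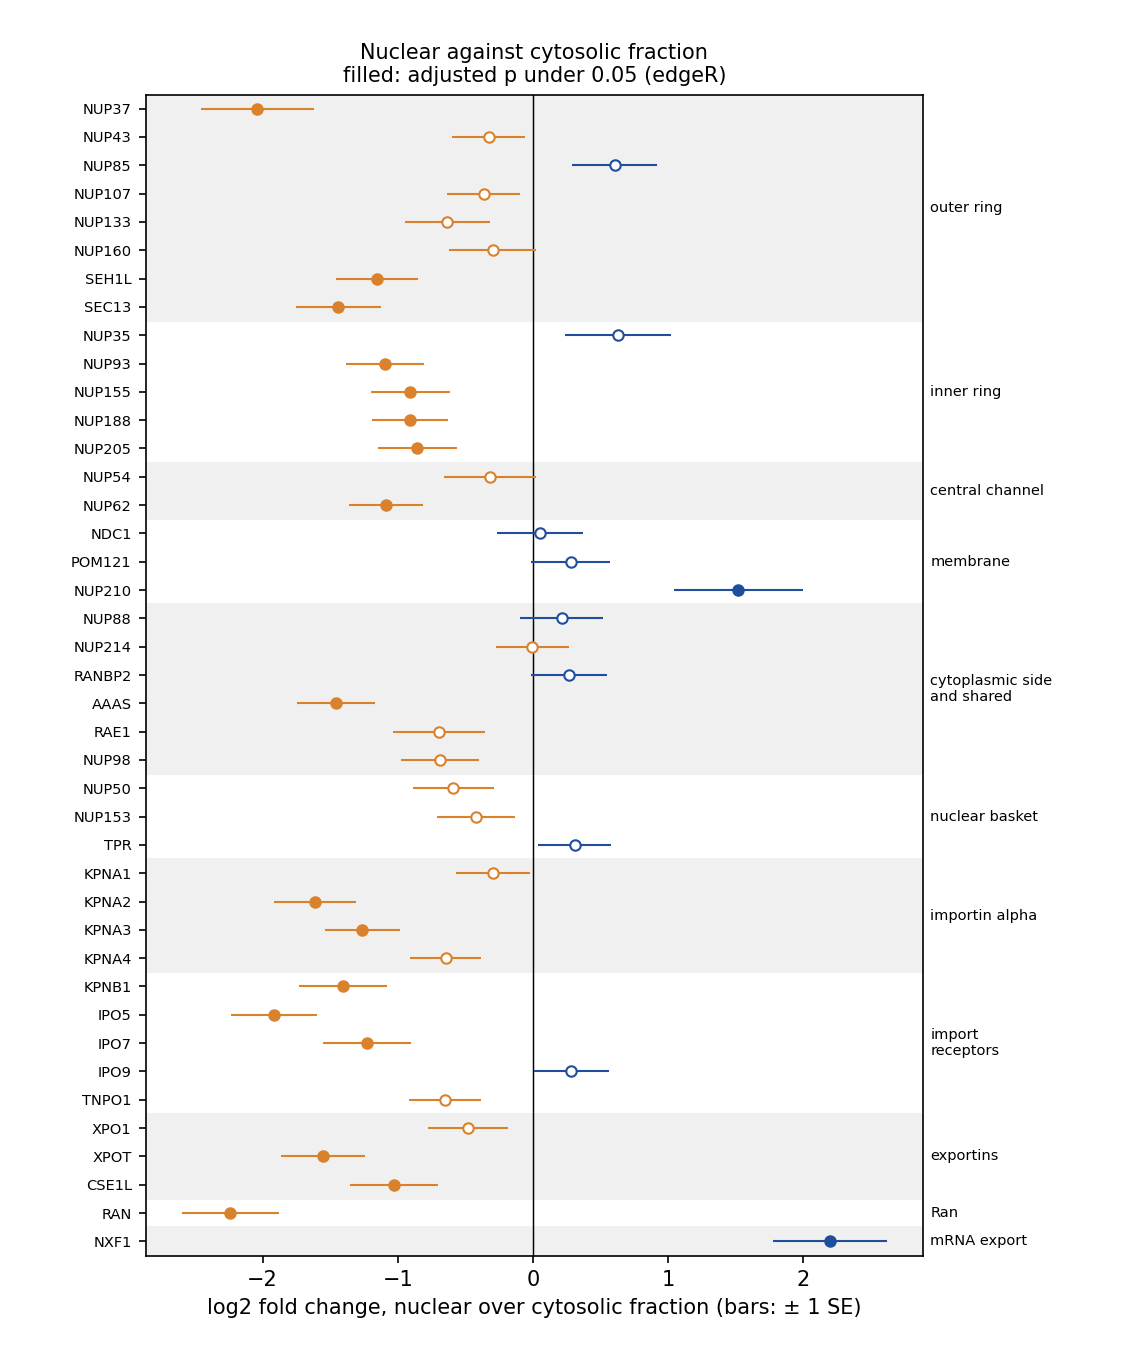
Log2 fold change, nuclear over cytosolic fraction (horizontal axis, bars ± 1 SE), of the 41 genes in rows grouped by role, with filled points at an adjusted p under 0.05 in edgeR. The 17 filled orange points lie between -2.24 (RAN) and -0.85 (NUP205), and the 2 filled blue points are NXF1 at 2.20 and NUP210 at 1.52.

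Of the 19 genes called between the fractions, 9 stayed called when each of the 8 libraries was left out in turn, namely RAN, NXF1, NUP37, SEC13, AAAS, KPNA2, KPNA3, IPO5 and XPOT. The count of calls fell to 11, with 9 lower and 2 higher, without nuclear replicate 1, and rose to 25, with 23 lower and 2 higher, without PFA replicate 1.

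A wider list of 51 other pore and transport genes, of which 50 were tested, had 19 lower and 5 higher in the nuclear fraction and a median log2 fold change of -0.56. On the cytosolic side were ALYREF, an adaptor that hands messenger RNA to NXF1 (mean 37.5 normalised CPM among nuclear and 149 among cytosolic libraries), the NXF1 partners NXT1 (log2 -1.44) and NXT2 (-2.43), the Ran importer NUTF2 (-1.45), and RANBP1 (-1.40) and RANGAP1 (-1.03), which act on Ran in the cytoplasm. NXF1 and both of its NXT partners thus had log2 fold changes of opposite sign. On the nuclear side were THOC1 (1.14) and THOC2 (0.77), subunits of the THO complex of messenger RNA export, AHCTF1 (0.88), the nucleoporin that seeds pore assembly on chromatin, LENG8 (1.92) and NUP210L. THOC3 (-1.22) and THOC7 (-2.21) of the same THO complex lay on the cytosolic side. NUP210L, the relative of NUP210, had 109 and 93 counts in the nuclear and 6 and 2 counts in the cytosolic libraries.

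The second question is how the RNA labelled at the lamina compares with the fractions. At the native lamina, the importin beta gene KPNB1, the importin gene IPO5 and the importin alpha gene KPNA3 were higher than in the nuclear fraction, and no gene of the 41 was lower. The background in this comparison was 3.87% higher and 3.44% lower among all genes tested. At an unadjusted p under 0.05, edgeR gave 8 higher and 2 lower, against 13.4% and 15.4% of all genes. The Wald test of DESeq2 called 6 higher and 0 lower, against 6.13% and 4.87% of the genes to which it gave an adjusted p. The median log2 fold change was 0.31 over the 41 genes and -0.07 over all genes.

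IPO5 stood at 269.9 and 267 normalised CPM at the native lamina, above both nuclear libraries and below both cytosolic ones, with a log2 fold change of 1.35 (SE 0.31) over the nuclear fraction (adjusted p = 0.0291, edgeR). KPNB1 was at 708 and 536, a 2.32-fold higher level than in the nuclear fraction (log2 1.22 (SE 0.33), adjusted p = 0.0428). The KPNB1 libraries of the native lamina overlapped those of the cytosolic fraction. KPNA3 was at 48.9 and 52.8, just below its cytosolic libraries (log2 1.09 (SE 0.28), adjusted p = 0.038). XPOT, with 113 and 99.2, came next at log2 1.02 and missed the threshold (adjusted p = 0.0594). None of the 3 calls remained in every fit with a library left out. The count was 0 without either native or either nuclear library, 1 (IPO5) without either cytosolic library, and rose to 8 higher and 1 lower without PFA replicate 1 and to 7 higher and 1 lower without PFA replicate 2, the lower gene being NXF1.

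Against the cytosolic fraction, 5 genes were lower at the native lamina and none was higher, with backgrounds of 6.77% lower and 6.99% higher. The 5 were RAN, NUP37, SEC13, KPNA2 and AAAS. With total counts as the scaling, 2 were lower (KPNA2 and RAN) and 3 higher (NUP210, TPR and NXF1). Over all 16504 genes tested, 581 were lower and 1646 higher with that scaling. RAN was at 159 and 117 normalised CPM at the native lamina, 2.93-fold below the cytosolic level (log2 -1.55 (SE 0.35), adjusted p = 0.0151, edgeR). NUP37 was at 14.0 and 8.55 (log2 -1.49 (SE 0.40), adjusted p = 0.029), and both RAN libraries and both NUP37 libraries lay below all cytosolic ones. SEC13 had 56.1 and 32.9, KPNA2 186 and 168 and AAAS 35.0 and 29.9, with log2 fold changes of -1.31, -1.30 and -1.09. In the full fit NUP210 and NXF1 were just outside the threshold on the other side. Both were called higher with DESeq2, total counts, upper-quartile factors, no filter or at least 10 counts in every library. A replicate block or a fit of only the 4 libraries compared also called both higher. With DESeq2 size factors in edgeR neither was called. NXF1 had 104 and 135 at the native lamina, between the fractions (log2 1.31 (SE 0.41), adjusted p = 0.0502), and NUP210 had 362 and 295, within the range of the nuclear libraries (log2 1.46 (SE 0.47), adjusted p = 0.0559). At an unadjusted p under 0.05 there were 8 lower and 3 higher in edgeR, against 14.5% and 17.1% of all genes. The Wald test of DESeq2 called 6 lower and 3 higher (NUP210, TPR and NXF1), against 8.98% and 8.77%. No gene stayed called without cytosolic replicate 1, cytosolic replicate 2 or native replicate 2, 3 did without native replicate 1 (NUP37, SEC13 and RAN), and 6 lower and 2 higher were called without either PFA library.

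At the PFA lamina 6 genes were higher than in the nuclear fraction and none was lower, with backgrounds of 9.63% higher and 7.81% lower. RAN, KPNB1, XPOT, AAAS, KPNA3 and NUP62 made up the 6. RAN stood at 289.7 and 164 normalised CPM, 2.65-fold above the nuclear level (log2 1.41 (SE 0.35), adjusted p = 0.0207, edgeR). KPNB1 was at 756 and 496 (log2 1.23 (SE 0.33), adjusted p = 0.0252). For both genes the first PFA library was the higher one and both PFA libraries lay above the nuclear libraries. XPOT had 143 and 89.8, AAAS 59.3 and 41.2, KPNA3 53.6 and 38.6 and NUP62 142 and 126, with log2 fold changes of 1.16, 1.00, 0.95 and 0.93. At an unadjusted p under 0.05, edgeR gave 15 higher and 2 lower, against 17.5% and 17.2% of all genes. The Wald test of DESeq2 called 8 higher and 2 lower (IPO9 and NXF1), against 10.3% and 8.95%. NXF1 had the lowest log2 fold change of the 41 genes here, -1.21 (SE 0.41), and just missed the threshold (adjusted p = 0.0572, edgeR). Its PFA libraries both lay below the nuclear ones. In edgeR it was called lower with a replicate block, unfiltered, or under the stricter 10-count filter. It was not called with total counts, upper-quartile factors or DESeq2 size factors. Upper-quartile scaling left 3 calls, RAN, KPNB1 and XPOT, and a fit of only the nuclear and PFA libraries left 0. The count was 0 without PFA replicate 1 or either nuclear library, 4 without either cytosolic library, and 12 higher and 1 lower without PFA replicate 2.

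Against the cytosolic fraction, none of the 41 genes was called at the PFA lamina by edgeR, with backgrounds of 0.527% higher and 0.145% lower. At an unadjusted p under 0.05, edgeR gave 2 higher and 7 lower, against 12.9% and 8.61% of all genes. The Wald test of DESeq2 called 4 lower (KPNA2, IPO5, IPO7 and CSE1L), against 3.01% of the genes it gave an adjusted p, and 0 higher, against 3.7%. KPNA2 came nearest, at 195 and 145 normalised CPM and log2 -1.36 (SE 0.30) (adjusted p = 0.0581, edgeR). Of its PFA libraries, the second lay within the nuclear range and the first above it, and both lay below the cytosolic libraries. Without PFA replicate 1, 6 genes were called lower (NUP37, KPNA2, IPO5, IPO7, CSE1L and RAN) and 2 higher (NUP210 and NXF1).

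Between the lamina preparations none was called by edgeR either, in a comparison with a background of 0.0% higher and 0.0% lower. At an unadjusted p under 0.05, edgeR gave 1 higher and 2 lower with PFA, against 5.44% and 5.6% of all genes. The Wald test of DESeq2 called TPR lower, against 2.75% of the genes to which it gave an adjusted p. The TPR level was 233 and 298 normalised CPM with the native preparation and 143 and 161 with PFA, with no overlap (log2 -0.81 (SE 0.28), adjusted p = 0.341, edgeR). Both native libraries lay above all fraction libraries, the first PFA library below them and the second among them. IPO7 had 303 and 408 at the native and 192 and 205 at the PFA lamina (log2 -0.84 (SE 0.32), adjusted p = 0.391).

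**Figure D3:**
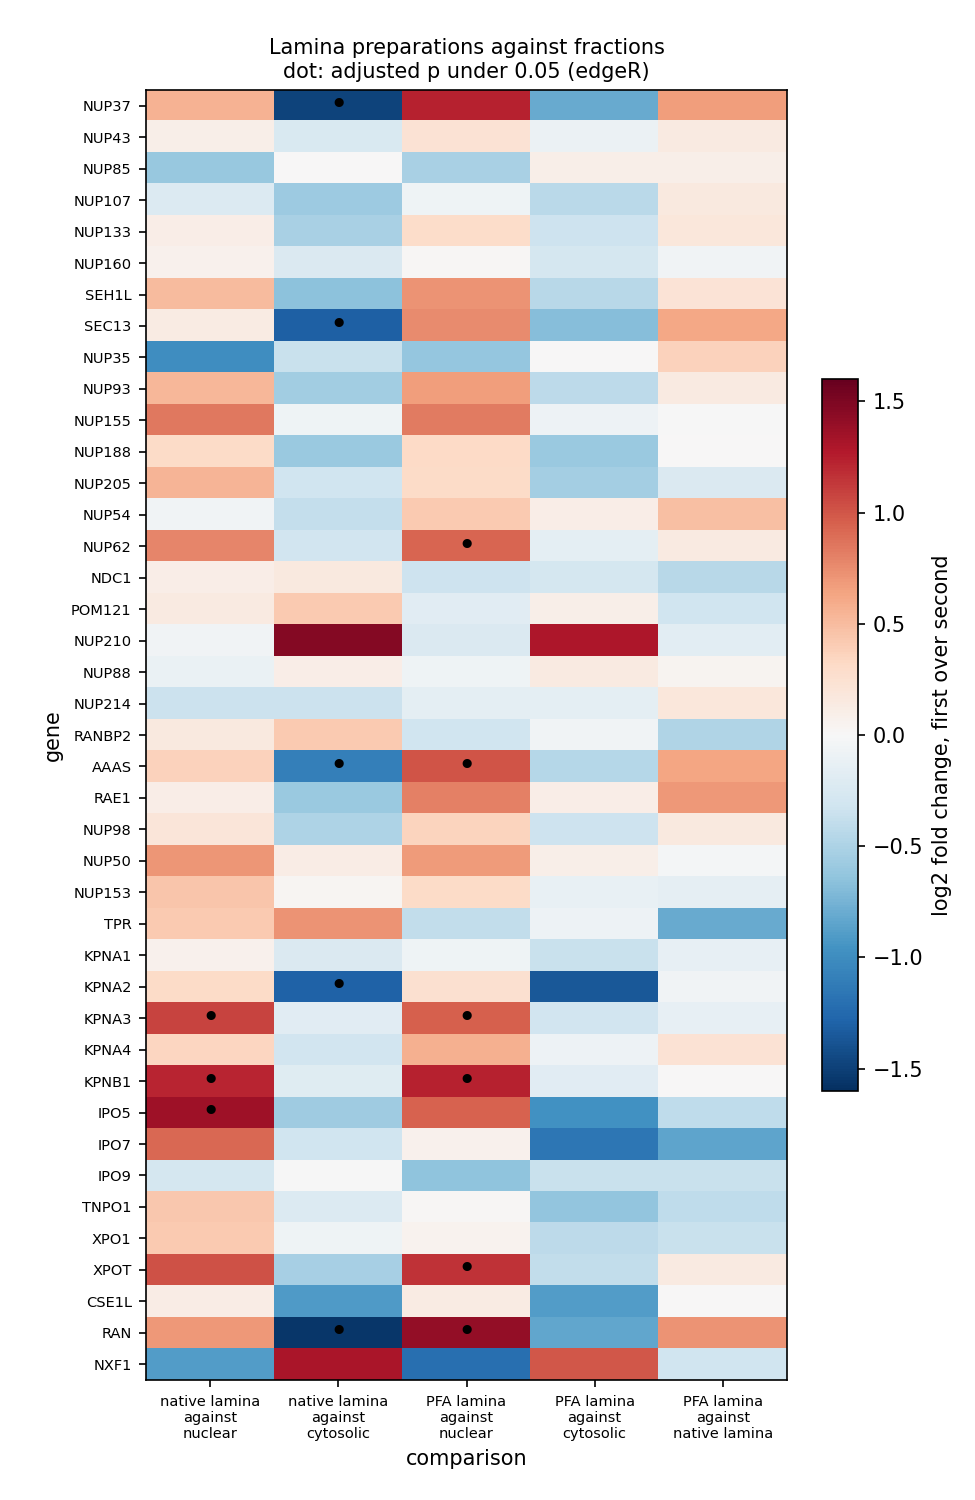
Log2 fold change (colour, first group over second) of the 41 genes (rows) in the 5 comparisons that involve a lamina preparation (columns), with a dot at an adjusted p under 0.05 in edgeR. The columns against the nuclear fraction hold 3 and 6 dots, that of the native lamina against the cytosolic fraction holds 5, and the last columns hold none.

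The lamina comparisons share their fraction libraries, so each gene's values are set side by side. The mean normalised CPM of a lamina preparation lay between the means of the fractions for 30 of 41 genes at the native and 30 of 41 at the PFA lamina (73.2% each), and for 60.5% and 61.9% of all genes tested. At the native lamina NDC1, POM121, RANBP2, NUP50, NUP153 and TPR were above both fraction means and NUP107, NUP35, NUP54, NUP214 and IPO9 below both, which is 14.6% and 12.2% of the genes against 20.3% and 19.1% of all genes tested. The basket genes NUP50, NUP153 and TPR are all among the former, and edgeR called none of them against either fraction. Over the cytosolic fraction their log2 fold changes were 0.12 (NUP50), 0.03 (NUP153) and 0.72 (TPR). The native and cytosolic libraries of NUP50 and of NUP153 overlapped. DESeq2 called TPR higher than in the cytosolic fraction, as did edgeR with total counts or with at least 10 counts in every library. With total counts or only the 4 libraries compared, edgeR called NUP50 higher than in the nuclear fraction. At the PFA lamina NUP54, RAE1 and NUP50 were above both means, while RANBP2, TPR, NDC1, NUP107, NUP35, NUP214, KPNA1 and IPO9 were below both (7.32% and 19.5%, against 20.7% and 17.4% of all genes). RANBP2 had 384 and 313 normalised CPM at the native and 231 and 270.4 at the PFA lamina.

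For the 17 genes with a higher cytosolic level, the lamina level can be stated as a percentage of the log2 distance from the nuclear to the cytosolic mean. The fraction libraries that chose these genes also set the distance, and no error or value over all genes is given. At the native lamina the percentage ran from 9.08% (SEC13) to 92.4% (NUP155), with a median of 48.6%. The genes near the cytosolic end were NUP155, KPNB1 (86.6%) and KPNA3 (86.1%), and those near the nuclear end SEC13, CSE1L (12.1%) and KPNA2 (19.3%). At the PFA lamina the range was 5.91% (IPO7) to 91.4% (NUP155), with a median of 61.6%. KPNA2 and CSE1L were near the nuclear end there too, at 15.7% and 12.3%, while SEC13 was at 52.3% and RAN was at 30.7% at the native and 62.9% at the PFA lamina. XPO1 and NUP98, which edgeR called in no comparison in the fit of all libraries, complete the genes followed throughout. XPO1 had 403 and 432 normalised CPM in the native libraries and 385 and 269 in the PFA libraries. NUP98 had 209 and 163 in the native and 199 and 217 in the PFA libraries, all within the range of the fraction libraries. The second PFA library of XPO1 lay below every fraction library.

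The replicates of the lamina preparations were further apart for these genes than those of the fractions. The median absolute log2 gap between replicates over the 41 genes was 0.42 for the PFA lamina and 0.29 for the native lamina, against 0.20 for either fraction, and over all genes 0.50, 0.32, 0.29 (nuclear) and 0.32 (cytosolic). Of the 17 genes with a higher cytosolic level, 13 were higher in the first PFA library than in the second and 15 were higher in the first native library (76.5% and 88.2%). Over all 41 genes these counts were 27 and 33 (65.9% and 80.5%), and over all genes tested the shares were 49.1% and 51.6%. NXF1 was at 49.5 and 143 and NUP210 at 173 and 412 normalised CPM in the PFA libraries, the first near the cytosolic libraries and the second nearer the nuclear ones. The share of MALAT1 separated the PFA libraries the same way, and its part in these differences was not tested.

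The exonic length of the genes, from 1293 bases in NUP37 to 11711 in RANBP2 with a median of 4747, was set against each comparison. Across the 41 genes, Spearman's rho between length and the log2 fold change of the native lamina over the cytosolic fraction was 0.55, against 0.22 across all 16504 genes. Between the PFA and native lamina it was -0.65 across the 41 genes and -0.33 across all genes, and between the nuclear and cytosolic fractions 0.41 and 0.07. For the PFA lamina over the nuclear fraction it was -0.44 and -0.06, and for the PFA lamina over the cytosolic fraction 0.11 and 0.05. For the native lamina over the nuclear fraction there was no such order among the 41 genes, with rho of -0.01, against 0.18 across all genes. The points are genes that share libraries and depth and are not independent replicates, and no p is given. Taken for single pairs of libraries, rho ran from 0.41 to 0.62 for the native lamina over the cytosolic fraction and from -0.72 to -0.18 for the PFA over the native lamina, the weakest with PFA replicate 2 and native replicate 1. Single pairs differed in sign for the native lamina over the nuclear fraction (-0.21 to 0.18) and for the PFA lamina over the cytosolic fraction (-0.11 to 0.38).

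All 5 genes lower at the native lamina than in the cytosol, RAN, NUP37, SEC13, KPNA2 and AAAS, have fewer than 3000 exonic bases, a bound chosen after the values were seen. The 9 genes below it, which also include NUP85, NUP35, NUP54 and RAE1, had a median log2 fold change of -1.09 and the 32 longer genes one of -0.23. At the PFA lamina RAN, RAE1, NUP37, AAAS and SEC13, all of short exonic length, had the most positive values over the native lamina, from 0.62 (SEC13) to 0.72 (RAN). The PFA and native libraries of NUP37 and of RAE1 overlapped, and those of RAN, AAAS and SEC13 did not. Of the genes of long exonic length, TPR (9706 bases), RANBP2 and IPO9 (11416 bases) were at -0.81, -0.48 and -0.35. Others of long exonic length went the other way. KPNA4 (8981 bases) was at 0.23, and NUP98 (8034 bases) and NUP214 (7969 bases) had higher means with PFA. The shorter KPNA2 (2712 bases) had a lower mean with PFA. None of these passed edgeR's test between the preparations singly, and DESeq2 called TPR.

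**Figure D4:**
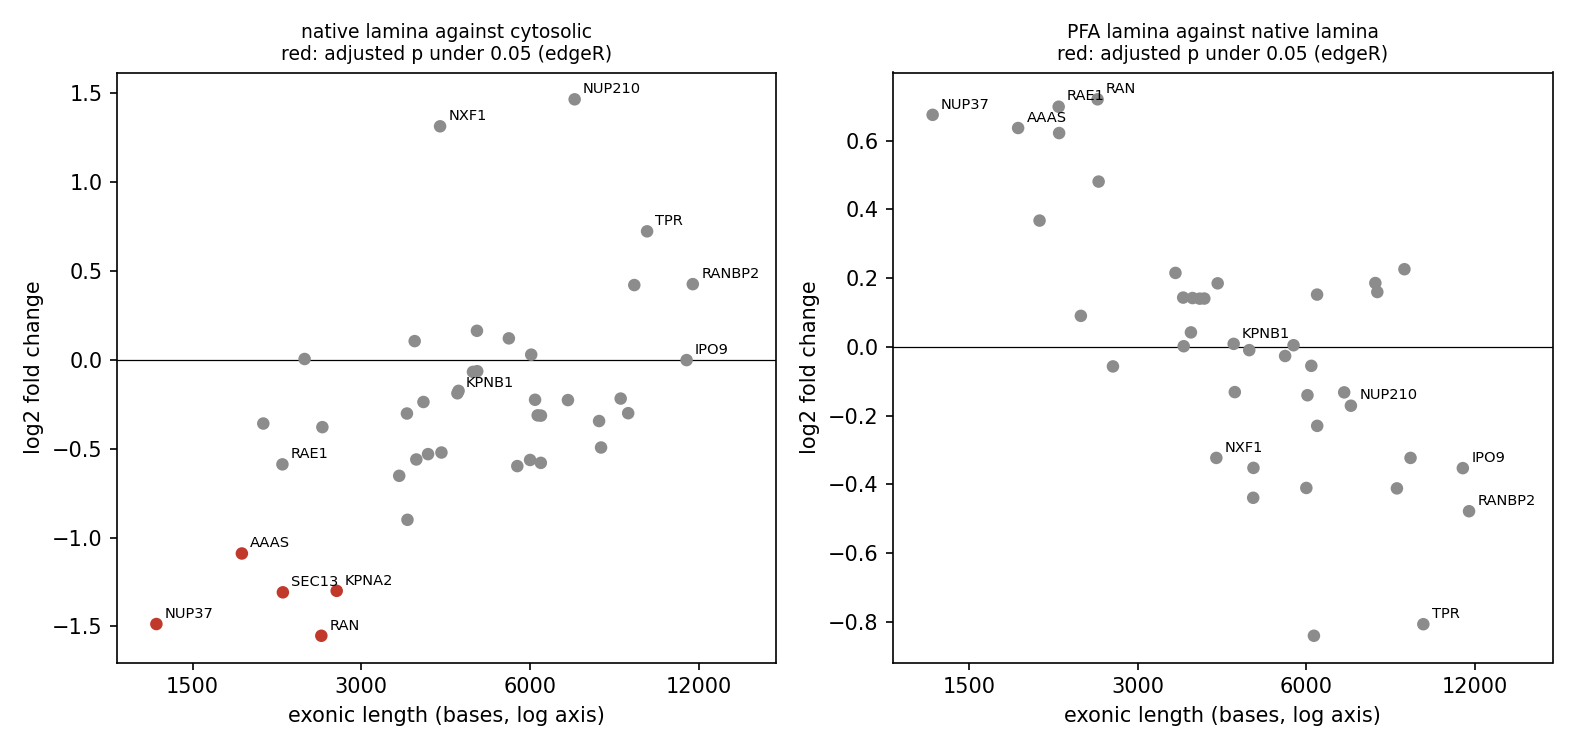
Log2 fold change (vertical axis) against exonic length in bases (horizontal log axis) for the 41 genes, for the native lamina over the cytosolic fraction (left) and the PFA over the native lamina (right), with called genes in red. On the left the 5 red points are all shorter than 3000 bases, and on the right the values run from 0.72 for RAN to -0.81 for TPR and -0.84 for IPO7.

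The genes were also placed against lamina-associated domains, stretches of chromatin that touch the lamina, which the series gives as 1 list each for the G1, S and G2 stages of another line, HCT116 colorectal carcinoma cells. None of the 41 genes touched a domain in G1 or S, and 1 did in G2, against 2.37%, 2.00% and 3.44% of all tested genes on the main chromosomes. That gene was RAN, on hg19 at chr12:131356539-131362223 on the plus strand. The G2 domain that contains it spans chr12:127700001-132200000, while the nearest domain edge lay 156.5 kb away in both G1 and S. The median distance of the 41 genes to a domain was 3443 kb in G1, 4802 kb in S and 3939 kb in G2. No distance over all tested genes is given, so these medians cannot be called long or short. The lists carry no replicate, and they come from another cell line than the RNA.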

How the data were processed

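The 8 HEK293FT libraries were deposited as read counts per gene, made by the authors with featureCounts (Subread 1.5.2) on hg19 with RefFlat genes, with strand ignored and a read counted for every gene it overlapped, per the file headers. The submitters' processing notes also list TopHat2 2.1.1 and Bowtie2 2.3.2 without a role. The header of cytosolic replicate 1 carries the output name of nuclear replicate 1 but the input of cytosolic replicate 1. It was kept as the sample labels give it, and its MALAT1 count was 5946, against 4608 in the other cytosolic and 70433 and 96165 in the nuclear libraries. The domain lists of HCT116 were deposited as intervals without values, 1 per stage, and how replicates were combined is not given in the sources used here. Samples of K562 with conflicting labels were not used here.

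Genes were filtered with filterByExpr by group, scaled by TMM and tested with edgeR 4.0.16 (R 4.3.3) in 1 quasi-likelihood fit of all 8 libraries, with 6 contrasts, Benjamini-Hochberg adjustment over 16504 genes and calls at an adjusted p under 0.05. The fitting was run on simulated data in which far fewer genes changed than were called between the real fractions. That run gives no error rate for the calls reported here. The 41 genes, the 51 other genes and the markers were chosen with earlier results of these data known. Genes named with values in every library were, per contrast, the 2 called genes that lay furthest above and the 2 that lay furthest below 0 in log2 fold change, and RAN, NXF1, KPNB1, XPO1, NUP98, TPR and RANBP2 throughout; others were named after their values were seen. Counts are not molecules, so the precision of a single count covers counting error only. The SEs and p-values rest on the spread between libraries. Alternatives were total counts, upper-quartile factors or DESeq2 size factors as scaling in edgeR, a minimum of 10 counts in every library or no filter, DESeq2 1.42.0, a replicate block, a fit per pair of groups, and leaving out each library. For the fits that leave out a library, no share over all genes is given beside the counts of calls.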

Additional observations from a re-analysis of the deposited data

How the results depend on the processing

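No call among the 41 genes changed direction under any of the 16 other fits. Of the 33 calls, the 8 other settings kept 242 of 264 tests past the threshold, and leaving out single libraries kept 184 of 264. Leaving out a library gave 11 to 25 calls for nuclear against cytosolic (19 in the full fit), 0 to 9 for native lamina against nuclear (3), 0 to 8 for native lamina against cytosolic (5), 0 to 13 for PFA lamina against nuclear (6) and 0 to 8 for PFA lamina against cytosolic (0). For native lamina against nuclear, the count was 6 with the DESeq2 Wald test, 5 with no filter, 9 with only the 4 libraries compared, 8 with total counts and 1 with upper-quartile factors. For native lamina against cytosolic it was 9 with the DESeq2 Wald test. It was 8 with at least 10 counts in every library and with only the 4 libraries compared. No filter and upper-quartile factors each gave 5 lower and 2 higher in that comparison. For PFA lamina against nuclear it was 10 with the DESeq2 Wald test, 0 with only the 4 libraries compared and 3 with upper-quartile factors. For PFA lamina against cytosolic it was 4 with the DESeq2 Wald test, 1 with at least 10 counts in every library, 4 with no filter and 1 with a replicate block. Between the lamina preparations the DESeq2 Wald test gave 1. The causes were not tested. The centre of the log2 fold changes depended on the scaling. With total counts, the median over the tested genes shifted by 0.28 (native lamina against nuclear), 0.29 (native lamina against cytosolic), 0.17 (PFA lamina against nuclear), 0.17 (PFA lamina against cytosolic) and -0.11 (between the preparations). The share of all calls that were higher then became 87.5% (52.9% in the full fit), 73.9% (50.8%) and 78.7% (55.2%) in the first 3, and native lamina against cytosolic had 3 of the 41 genes higher and 2 lower, with their median at -0.00. With upper-quartile factors the median shifted by 0.27 (nuclear against cytosolic), -0.15, 0.12, -0.16 and 0.11 (the lamina comparisons in the same order), and the share of higher calls was 67.6% (55.2%) for nuclear against cytosolic, where the median of the 41 was -0.37, then 38.7%, 60.5% and 42.3% for the first 3 lamina comparisons. The replicate numbers are shared between groups, but nothing says that they pair the libraries. Deviations of same-numbered libraries correlated at 0.32 between the fractions and at 0.35 between the lamina preparations. Between a fraction and a lamina preparation the correlations ran from -0.03 to 0.16. The replicate block gave 22 calls for nuclear against cytosolic and 4 for native lamina against nuclear. It gave 7 for native lamina against cytosolic and 9 for PFA lamina against nuclear. The count of genes touching a domain was 1 also for genes wholly inside a domain and for genes within 100 kb of one. Depth limits NUP37 and NUP35 most, with 29 counts for NUP37 in the second PFA library.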
